A study of Mus musculus with 10 samples.

Results

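Accessible regions were examined around 9 transcription factor genes that give forebrain progenitors their regional identity: Pax6, Emx1, Emx2 and Lhx2 of the dorsal forebrain, Gsx1, Gsx2, Nkx2-1 and Nkx6-2 of the ventral forebrain, and Otx2 of the rostral neural tube, which was kept apart. A peak was assigned to a gene when its summit lay within the gene body or within 50 kb of it (GENCODE M21, GRCm38). This gave 492 peaks out of the 759157 of all 10 lists, and they merged into 95 regions out of 137454. Of these 95 regions, 43 lay in the windows of the dorsal genes, 42 in those of the ventral genes and 10 in that of Otx2. Consensus regions, those with a peak in 2 or more libraries, numbered 65 of the 95, and 27 regions had a peak in all 10 libraries (41.5% of the consensus regions, against 38.2% of the 99231 consensus regions of the series).

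In the embryo these factors divide the telencephalon into territories. Pax6, Emx1, Emx2 and Lhx2 act in progenitors of the pallium, which forms the cortex, Gsx1 and Gsx2 in those of the ganglionic eminences, and Nkx2-1 in the medial ganglionic eminence and the preoptic area. Neural stem cells of the adult subependymal zone (SEZ) derive from several of these territories and keep traces of their origin, so that cells of different walls of the ventricle express different members of the set and form different olfactory interneurons.

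The libraries were ATAC-seq libraries, in which a transposase cuts open chromatin, of neural stem cell cultures from the SEZ of adult mice of 10 weeks. Wild-type (WT) cells and cells of Cdkn1b-deficient mice (p27KO), which lack the cyclin-dependent kinase inhibitor p27, were each taken in 2 states, with 3 libraries for each state in WT and 2 for each state in p27KO, of 50000 cells each. Proliferating cells (PRO) were neurospheres grown in EGF (20 ng/ml) plus FGF (10 ng/ml), at 3 days in vitro per the labels and the methods. Cells that had started to differentiate (DIFF) were secondary neurospheres plated on Matrigel for 2 days with FGF and then kept for 24 h in medium with 2% serum and no mitogens. The mutant line was maintained on a C57BL/6J background and lacks p27 in every cell, and the sources used here do not say how many animals gave the cultures, so the p-values measure the spread between these libraries. PRO and DIFF cultures differed in substrate and serum as well as in mitogens. In such bulk libraries, fewer cells with an open region cannot be told apart from less signal per cell.

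The lists held 57534 to 91801 peaks, and WT DIFF replicate 3 stood apart from the other WT DIFF libraries with 88738 peaks against 61783 and 57534. The lists hold no read numbers, so the depth is unknown, and a missing peak says only that the caller reported none. A Cdkn1b promoter peak was listed for 6 of 6 WT libraries and for 0 of 4 p27KO libraries, which follows the genotype of the titles although the free-text descriptions of the p27KO libraries name WT cells. The promoters of the Y-linked genes Ddx3y, Eif2s3y and Uty split the libraries in the same way, 6 of 6 against 0 of 4, so that genotype and sex cannot be told apart. Promoters of the 7 neural stem cell markers Sox2, Nes, Slc1a3, Fabp7, Gfap, Egfr and Vim had a peak in all 10 libraries. No consensus region lay at the promoters of Mog and Mag (oligodendrocytes), Cx3cr1 and Ptprc (microglia) or Cldn5 and Pecam1 (endothelium). Those of Aif1, P2ry12, Kdr, Foxj1, Snap25 and Syt1, markers of microglia, endothelium, ependyma and neurons, had one in all 10, that of Rbfox3 (neurons) in 8, and those of the pericyte markers Pdgfrb and Rgs5 in 5 and 2.

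The sequences of 7 regions carry the results that follow. They are the 5 regions called in the test for a change between PRO and DIFF and the regions at the starts of Gsx1 and Gsx2, a paralogue pair that differed in promoter peaks. Among the 5, Lhx2 +73.5 kb entered that test only through its PRO libraries and so had to differ. Each sequence is the plus strand of GRCm38.p6 over 300 bases around the summit, and capitals mark matches to the homeodomain core TAATTA, the AP-1 motif TGANTCA, the SOX motifs ACAATG and ACAAAG and the NFI palindrome, searched on both strands. Distances are from the 5′ end of the gene along its strand.
Lhx2 +73.5 kb, chr2:38412647-38412946: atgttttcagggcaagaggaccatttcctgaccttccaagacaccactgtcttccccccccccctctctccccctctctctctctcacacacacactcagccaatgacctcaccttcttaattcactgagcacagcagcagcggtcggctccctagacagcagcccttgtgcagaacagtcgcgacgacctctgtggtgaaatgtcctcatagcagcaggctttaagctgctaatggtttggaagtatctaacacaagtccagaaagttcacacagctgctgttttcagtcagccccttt
Lhx2 +56.1 kb, chr2:38395245-38395544: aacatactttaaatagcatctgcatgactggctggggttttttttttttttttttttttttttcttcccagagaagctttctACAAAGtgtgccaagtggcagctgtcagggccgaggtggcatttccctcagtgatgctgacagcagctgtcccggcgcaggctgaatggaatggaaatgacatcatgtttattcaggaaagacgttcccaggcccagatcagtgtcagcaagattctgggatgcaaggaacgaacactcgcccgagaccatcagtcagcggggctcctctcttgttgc
Emx2 −25.9 kb, chr19:59432321-59432620: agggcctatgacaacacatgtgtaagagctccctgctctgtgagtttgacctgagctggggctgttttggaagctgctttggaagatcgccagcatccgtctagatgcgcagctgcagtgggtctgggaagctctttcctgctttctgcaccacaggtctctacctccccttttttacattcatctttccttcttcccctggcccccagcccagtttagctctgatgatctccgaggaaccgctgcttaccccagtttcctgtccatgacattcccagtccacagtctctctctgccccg
Gsx2 +7.1 kb, chr5:75082534-75082833: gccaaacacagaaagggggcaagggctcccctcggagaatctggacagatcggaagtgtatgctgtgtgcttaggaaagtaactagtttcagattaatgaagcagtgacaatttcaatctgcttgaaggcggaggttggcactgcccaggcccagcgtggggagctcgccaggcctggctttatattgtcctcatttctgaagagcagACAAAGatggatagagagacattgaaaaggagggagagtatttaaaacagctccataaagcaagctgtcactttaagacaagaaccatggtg
Nkx6-2 +51.8 kb, chr7:139530812-139531111: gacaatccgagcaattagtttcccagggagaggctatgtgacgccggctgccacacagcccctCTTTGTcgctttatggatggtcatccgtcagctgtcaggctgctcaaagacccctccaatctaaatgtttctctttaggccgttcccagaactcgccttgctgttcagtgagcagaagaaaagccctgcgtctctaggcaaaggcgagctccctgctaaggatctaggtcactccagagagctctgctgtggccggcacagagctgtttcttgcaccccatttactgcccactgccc
Gsx1 start, chr5:147188487-147188786: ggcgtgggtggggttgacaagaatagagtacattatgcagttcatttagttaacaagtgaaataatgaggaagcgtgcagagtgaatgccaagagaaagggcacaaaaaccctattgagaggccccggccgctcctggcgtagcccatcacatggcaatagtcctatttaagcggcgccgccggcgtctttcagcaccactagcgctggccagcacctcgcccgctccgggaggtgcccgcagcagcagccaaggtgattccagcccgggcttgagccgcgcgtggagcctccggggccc
Gsx2 start, chr5:75075858-75076157: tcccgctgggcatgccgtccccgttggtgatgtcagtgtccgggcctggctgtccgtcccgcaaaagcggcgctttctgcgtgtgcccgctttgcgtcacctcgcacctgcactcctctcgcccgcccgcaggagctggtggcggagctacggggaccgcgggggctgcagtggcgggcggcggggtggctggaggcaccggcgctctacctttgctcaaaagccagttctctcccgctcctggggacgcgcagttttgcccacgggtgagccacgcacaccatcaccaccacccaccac
In these 7 windows the matches were 1 ACAAAG each in Lhx2 +56.1 kb, Gsx2 +7.1 kb and Nkx6-2 +51.8 kb, and no other motif of the list was found. Over the 65 consensus regions, TAATTA was present in 3 (4.62%, against 6.17% of 98991 consensus regions of the series), TGANTCA in 6 (9.23% against 11.5%), ACAATG in 8 (12.3% against 16.2%) and ACAAAG in 16 (24.6% against 27.7%). The NFI palindrome was in 0 of the 65 and in 0.125% of all. The shares in the member regions were a little below those over the series. By kind, TAATTA (6.9%), ACAATG (17.2%) and ACAAAG (34.5%) in ventral regions and TGANTCA (12.9%) in dorsal regions lay above the series. The other dorsal and ventral shares lay below it, and no difference was tested.

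**Figure D1:**
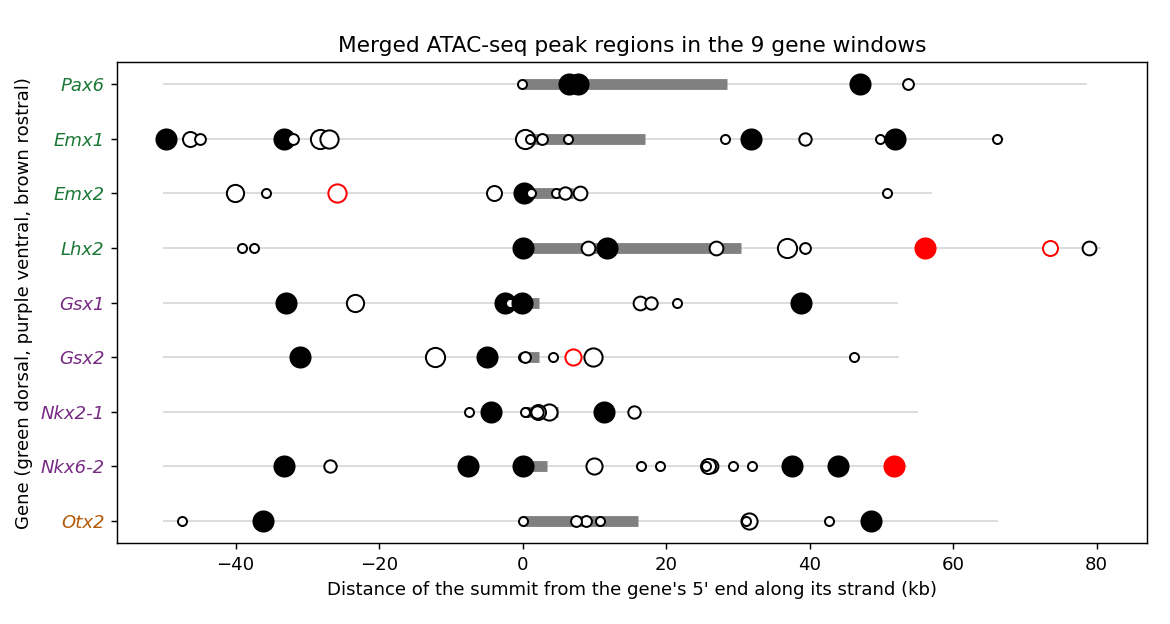
Positions of the 95 merged regions, with the distance of the summit from the 5′ end of each gene on the x axis (kb along the gene's strand) and 1 gene per row; the thick bar is the gene body, the thin line the window, the size of a circle grows with the number of libraries with a peak, filled circles have a peak in all 10 libraries and red circles passed the test between PRO and DIFF in WT or p27KO. All 5 red circles lie away from the gene starts, 3 of them more than 50 kb from the 5′ end. Among them, Lhx2 +73.5 kb entered the test only through its PRO libraries and so had to differ.

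The gene starts were examined first. A promoter region was the region with a summit nearest to an annotated start site, within 3 kb, among the consensus regions. Pax6, Emx2, Lhx2, Gsx1 and Nkx6-2 had a promoter peak in all 10 libraries and Emx1 in 9, while Nkx2-1 had one in 3 libraries and Gsx2 and Otx2 in 2 each. These counts take only the nearest region. At Nkx2-1, regions at +2.2 and +3.7 kb, also within 3 kb of a start site, had peaks in 5 and 6 libraries. Over all protein-coding genes, 59.3% had a promoter peak in all 10 libraries. By this measure, 3 of the 4 dorsal genes and 2 of the 4 ventral genes had a promoter peak in all 10 libraries. A difference between the 2 kinds was not tested.

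Pax6 (ENSMUSG00000027168, chromosome 2, 105668900 to 105697364, plus strand) is a paired-box and homeobox factor of dorsal progenitors and of the eye. Its promoter region, at 105674648 to 105675779, lay 6.5 kb inside the gene in an untranslated exon, by an internal start site and not by the first one. The fold enrichment there was 8.23, 10.1 and 10.3 in the WT PRO libraries, 7.61, 7.45 and 9.96 in WT DIFF, 9.78 and 10.4 in p27KO PRO and 9.86 and 8.76 in p27KO DIFF. The groups overlapped, and the change in normal score was 0.06 ± 0.19 (SE) in WT and 0.03 ± 0.24 in p27KO (limma, adjusted p = 0.869 and 0.957). A second region 7.7 kb from the 5′ end, at 105676044 to 105677321, had a peak in all 10 libraries too, with a fold enrichment of 3.56 to 5.60.

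Emx1 and Emx2 are homeobox factors of the cortical primordium. At Emx1 (ENSMUSG00000033726, chromosome 6, 85187438 to 85204462, plus strand) the promoter region at 85187489 to 85188292 had a fold enrichment of 5.12 to 5.87 in WT PRO, 4.32 to 5.31 in WT DIFF and 4.60 to 5.06 in p27KO PRO. In p27KO DIFF it had no peak in replicate 1 and 4.54 in replicate 2. At Emx2 (ENSMUSG00000043969, chromosome 19, 59458372 to 59465357, plus strand) the region at 59457399 to 59458828 covers the start and an exon of the antisense gene Emx2os, and its fold enrichment ranged from 5.42 to 8.71 over the 10 libraries. Neither promoter passed the test in WT (changes of 0.04 ± 0.24 and 0.13 ± 0.17, limma, adjusted p = 0.925 and 0.659) or in p27KO (−0.40 ± 0.29 and 0.30 ± 0.21, adjusted p = 0.438 and 0.422).

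Lhx2 (ENSMUSG00000000247, chromosome 2, 38339281 to 38369733, plus strand) is a LIM-homeobox factor that sets cortical identity. Its promoter region at 38339053 to 38340114 had a fold enrichment of 11.2, 9.05 and 9.33 in WT PRO and 4.81, 6.94 and 9.08 in WT DIFF. The p27KO libraries lay between 7.22 and 8.41. WT PRO and WT DIFF overlapped by 1 library, WT DIFF replicate 3, and the change was −0.32 ± 0.22 in WT (limma, adjusted p = 0.360) and 0.19 ± 0.27 in p27KO (adjusted p = 0.728). The region 11.8 kb inside the gene, by a further start site, was the highest of the Lhx2 window, at a mean percentile of 87.8 within its list over the 10 libraries.

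Of the ventral genes, Gsx1 (ENSMUSG00000053129, chromosome 5, 147188696 to 147190947, plus strand) and Gsx2 (ENSMUSG00000035946, chromosome 5, 75075601 to 75077893, plus strand) encode related homeobox factors of the ganglionic eminences. The Gsx1 promoter region at 147188344 to 147189299 had a peak in every library, with a fold enrichment of 8.23, 8.96 and 8.47 in WT PRO, 9.01, 9.06 and 9.06 in WT DIFF, 9.64 and 10.1 in p27KO PRO and 10.2 and 10.6 in p27KO DIFF. All WT DIFF values were above all WT PRO values, by little, and the rank test did not pass (0.37 ± 0.18, limma, adjusted p = 0.194). The Gsx2 region at 75075895 to 75076282 had a peak only in WT PRO replicate 2 and p27KO PRO replicate 1 of the 10 libraries, at a fold enrichment of at most 4.60, and the nearest other consensus regions were those at −4.9 kb and +7.1 kb. Regions at +0.1 kb and +4.2 kb had a peak in 1 library each.

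Nkx2-1 (ENSMUSG00000001496, chromosome 12, 56531958 to 56536908, minus strand), the factor of the medial ganglionic eminence, had 3 consensus regions over its gene body, 2.0, 2.2 and 3.7 kb from the 5′ end, with peaks in 3, 5 and 6 libraries, and 2 regions nearer the start, at +0.3 and +0.5 kb, with a peak in 1 library each. All of these regions lay within 3 kb of an annotated start site of Nkx2-1. Only WT DIFF replicates 1 and 2 had a peak at none of them. The region at 3.7 kb had a peak in 3 of 3 WT PRO libraries (4.54, 4.10 and 3.56), in 0 of 3 WT DIFF libraries, in 2 of 2 p27KO PRO libraries (3.63 and 3.33) and in p27KO DIFF replicate 1 (3.57). The change in WT was −0.61 ± 0.26 (limma, adjusted p = 0.125). Nkx6-2 (ENSMUSG00000041309, chromosome 7, 139579376 to 139582797, minus strand), a homeobox factor of ventral progenitors that also acts in oligodendrocytes, had a promoter region at 139581890 to 139582984 with a fold enrichment of 8.45, 8.63 and 8.74 in WT PRO and 4.195, 4.59 and 6.37 in WT DIFF. It was 6.64 and 8.56 in p27KO PRO and 6.43 and 5.65 in p27KO DIFF. PRO and DIFF values did not overlap in either genotype, but the change did not pass the test (−0.54 ± 0.20 in WT, limma, adjusted p = 0.0895, and −0.13 ± 0.25 in p27KO, adjusted p = 0.790). It passed in WT when only regions with a peak in all 10 libraries were ranked and tested (−0.91, limma, adjusted p = 0.0342).

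Otx2 (ENSMUSG00000021848, chromosome 14, 48657677 to 48673819, minus strand), a homeobox factor of the rostral neural tube, had no region by a start site with peaks in over 2 libraries. Its window nevertheless held the highest peak of the whole set, in an intron of the long non-coding gene Otx2os1, upstream of the start (−36.2 kb), at 48709487 to 48711013. The fold enrichment there was 15.3, 15.0 and 15.4 in WT PRO, 15.6, 12.6 and 17.4 in WT DIFF, 16.5 and 16.4 in p27KO PRO and 15.4 and 15.8 in p27KO DIFF. The region stood at the 96.8 ± 0.866, 97.4 ± 2.54, 96.8 ± 0.320 and 95.4 ± 1.76 percentile of its list (SD, n = 3, 3, 2 and 2), and the groups overlapped.

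**Figure D2:**
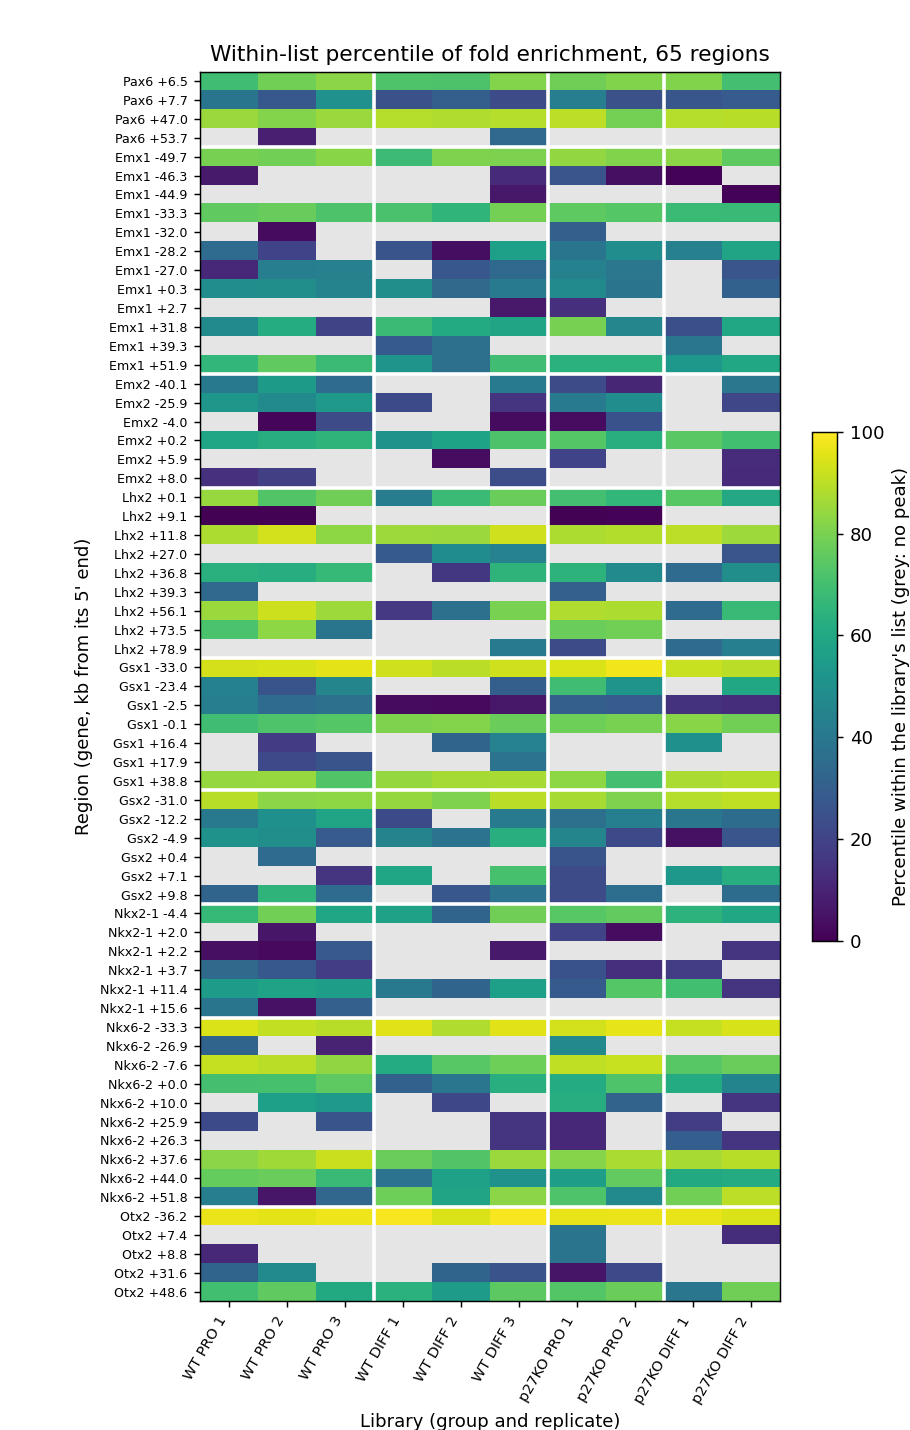
Percentile of fold enrichment within each library's list for the 65 consensus regions (rows, by gene and distance in kb from its 5′ end) in the 10 libraries (columns); grey marks no peak. Rows that are bright in all columns, such as Otx2 −36.2 kb and Gsx1 −33.0 kb, stand beside rows with peaks in a few libraries, and Lhx2 +73.5 kb is grey in all 5 DIFF libraries.

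The strength of each window was then compared by the percentile of its highest peak within the list of the library, where 100 is the highest peak of a list. In descending order of the mean over the 10 libraries, the genes were Otx2 (96.7), Gsx1 (93.2), Nkx6-2 (93.1), Lhx2 (88.1), Pax6 (86.6), Gsx2 (85.7), Emx1 (78.3), Nkx2-1 (65.2) and Emx2 (64.9). The ranges of Gsx1 (89.5 to 97.9) and Nkx6-2 (88.0 to 96.2) overlapped, as did those of Lhx2 (84.9 to 93.3), Pax6 (81.2 to 90.2) and Gsx2 (80.5 to 90.6), and those of Nkx2-1 (32.2 to 78.9) and Emx2 (51.2 to 74.5). Otx2 (94.2 to 98.9) overlapped Gsx1, Nkx6-2 overlapped Lhx2, and Emx1 (71.2 to 83.6) overlapped Gsx2 above it and Nkx2-1 below it, so that no neighbours in this order were separate over the 10 libraries. The median of this mean over the windows of 21924 protein-coding genes was 90.2, so that 6 of the 9 windows lay below it. The number of consensus regions was 12 for Emx1, 10 for Nkx6-2, 9 for Lhx2, 7 for Gsx1, 6 for Emx2, Gsx2 and Nkx2-1, 5 for Otx2 and 4 for Pax6, with a median of 6 against 8 over all windows. A window grows with the gene body and can hold promoters of other genes. Neither comparison with all windows was matched for gene length or for such promoters.

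The highest regions mostly lay outside the gene starts. They were Pax6 +47.0 kb in an intron of Elp4, Emx1 −49.7 kb at the promoter of Spr, Gsx1 −33.0 kb between genes, Gsx2 −31.0 kb at the promoter of Chic2, Nkx2-1 −4.4 kb in the antisense gene Gm26973 and Nkx6-2 −33.3 kb in an intron of Cfap46. For Emx2 it was the promoter region itself, and for Lhx2 the region at +11.8 kb. None of these regions, nor that of Otx2, passed the test in WT or p27KO. A window of 50 kb does not show that a region acts on the gene, and 2 of the 27 regions with a peak in all 10 libraries were promoters of other protein-coding genes, those of Spr and Chic2.

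Dorsal and ventral windows were compared by the mean percentile of the highest peak over the 4 genes of each kind. Dorsal genes averaged 78.3 ± 1.44 at PRO and 78.5 ± 4.68 at DIFF in WT, and 80.3 ± 5.20 and 81.9 ± 2.97 in p27KO (SD, n = 3, 3, 2 and 2). Ventral genes averaged 85.1 ± 2.17, 81.4 ± 8.30, 87.4 ± 0.396 and 84.4 ± 1.39 in the same order. The ventral mean was the higher in 9 of 10 libraries and the lower in WT DIFF replicate 2, where the highest Nkx2-1 peak stood at the 32.2 percentile. The dorsal minus ventral difference was −9.49, −7.59 and −3.21 in WT PRO, −8.23, 5.28 and −5.65 in WT DIFF, −11.1 and −3.18 in p27KO PRO and −1.31 and −3.55 in p27KO DIFF. PRO and DIFF overlapped in both genotypes. Without the regions at the promoters of Spr and Chic2, a choice made after the values were seen, the mean difference was −1.11, 3.01, 2.23 and 2.82 in the 4 groups, so that the ventral mean was no longer the higher in 3 of the 4 groups.

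**Figure D3:**
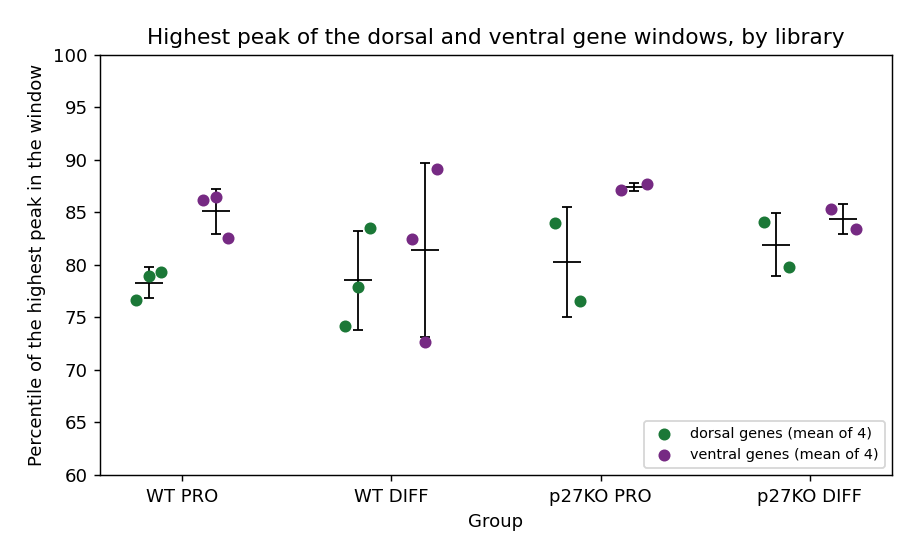
Mean within-list percentile of the highest peak over the 4 dorsal (green) and 4 ventral (purple) gene windows, each point 1 library, by group; bars are the mean and the SD (n = 3 in WT, 2 in p27KO), and the y axis starts at 60. Ventral points lie above dorsal points in most libraries, with the WT DIFF libraries spread most widely.

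The share of member regions with a peak was close to that over the whole series. Of the 65 consensus regions, 73.8 ± 4.62% had a peak at PRO and 63.1 ± 13.7% at DIFF in WT, and 76.9 ± 13.1% and 64.6 ± 8.70% in p27KO (SD, n = 3, 3, 2 and 2). Over all consensus regions of the series, these shares were 72.5, 63.1, 77.7 and 64.8%. In WT DIFF the longest list, replicate 3, had peaks in 51 of the 65 regions and the others in 34 and 38. By the group means, 67.7 ± 8.54% of the 31 dorsal regions had a peak in WT PRO and 63.4 ± 15.2% in WT DIFF, against 82.8 ± 5.98% and 64.4 ± 13.1% of the 29 ventral regions. In p27KO the dorsal share was 75.8 ± 11.4% and 61.3 ± 13.7%, and the ventral share was 77.6 ± 12.2% and 70.7 ± 2.43%.

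Some regions had a peak in every PRO and no DIFF library of a genotype. In WT these were 3 of the 65 (4.62%, against 4.32% of all regions), namely Lhx2 +73.5 kb, Nkx2-1 +15.6 kb and Nkx2-1 +3.7 kb. In p27KO they were 5 (7.69%, against 10.9%), namely Emx2 −4.0 kb, Lhx2 +9.1 kb, Lhx2 +73.5 kb, Nkx2-1 +2.0 kb and Otx2 +31.6 kb. Lhx2 +73.5 kb was thus the member region with this pattern in both genotypes. The opposite pattern, a peak in every DIFF and no PRO library, was found in WT at 1 region (1.54%, against 1.86%), Lhx2 +27 kb, and in p27KO at 0 regions (against 3.32%).

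Lhx2 +27 kb and Nkx2-1 +15.6 kb had too few peaks for the test. Lhx2 +27 kb, in an intron at 38366201 to 38366617, had no peak in any PRO library and a fold enrichment of 4.05, 5.09 and 4.66 in WT DIFF and of 4.26 in p27KO DIFF replicate 2. Nkx2-1 +15.6 kb, beyond the 3′ end of the gene in an intron of Sfta3-ps at 56521060 to 56521532, had a fold enrichment of 4.90, 2.95 and 4.15 in WT PRO and no peak in the other 7 libraries. Both lay below the middle of their lists, at percentiles of at most 48.5 and 38.9.

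The change from PRO to DIFF was tested at the 45 member regions that had peaks in 5 or more libraries, with p-values adjusted over all 70627 such regions. It was a difference of normal scores of the rank within a library among these 70627 regions, those lacking a peak being tied lowest. A library with fewer peaks ties more regions, and a peak of a given within-list percentile then scores higher, so list length enters each change. The Pax6 promoter had a change of 0.06 in WT although its mean within-list percentile went from 76.9 to 75.3. Over all 14638 tested promoters the median change was 0.12 in WT and 0.14 in p27KO. In WT, 3 of the 45 were lower at DIFF (6.67%, against 10.1% over all regions) and 2 were higher (4.44%, against 9.15%). The lower ones were Emx2 −25.9 kb, Lhx2 +56.1 kb and Lhx2 +73.5 kb, of dorsal genes, and the higher ones were Gsx2 +7.1 kb and Nkx6-2 +51.8 kb, of ventral genes. In p27KO, 1 of the 45 was lower (2.22%, against 6.48%), Lhx2 +73.5 kb, and 1 was higher (2.22%, against 5.83%), Gsx2 +7.1 kb. The median change was −0.06 in WT and 0.03 in p27KO, against 0.03 and 0.04 over all regions tested. By kind it was 0.02 for the 20 dorsal and −0.13 for the 22 ventral regions in WT, and 0.02 and 0.09 in p27KO, so that the medians did not follow the direction of the called regions. Of the 6 promoter regions of members that were tested, 0 were called by limma in either genotype, against 4.72% of 14638 promoters in WT and 2.17% in p27KO, shares at which 0 of 6 says nothing about the members. Lhx2 +73.5 kb entered the test only through its PRO libraries. Without it 2 regions were lower in WT and 0 in p27KO.

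Lhx2 +73.5 kb, at 38412510 to 38413005 and between genes, had a fold enrichment of 8.59, 11.1 and 4.64 in WT PRO, of 9.58 and 9.80 in p27KO PRO, and no peak in any of the 5 DIFF libraries. PRO and DIFF thus did not overlap in either genotype. The difference in normal score was −1.65 ± 0.30 in WT and −1.96 ± 0.37 in p27KO. It is given as a description, with no p, since the region reached the minimum of 5 libraries only through its 5 PRO libraries and so had to differ. Without any 1 of them it was not tested, and regions of the opposite pattern with fewer libraries, such as Lhx2 +27 kb with 4, did not enter the test.

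Lhx2 +56.1 kb, a broader intergenic region at 38394669 to 38395840, had a peak in every library. The fold enrichment was 11.2, 13.6 and 10.9 in WT PRO and 3.54, 4.40 and 9.52 in WT DIFF, and 12.6 and 12.1 in p27KO PRO and 4.33 and 8.24 in p27KO DIFF. All DIFF libraries lay below all PRO libraries of either genotype. The change was −1.05 ± 0.29 in WT (limma, adjusted p = 0.0256) and −0.95 ± 0.35 in p27KO (adjusted p = 0.108). The call in WT was lost when WT PRO replicate 1, 2 or 3 or WT DIFF replicate 1 or 2 was left out, with changes of −0.79 to −1.18 (limma, adjusted p of up to 0.104).

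Emx2 −25.9 kb, in an intron of Emx2os at 59432187 to 59432648, had a fold enrichment of 6.09, 5.67 and 5.86 in WT PRO. In WT DIFF it was 3.80 and 3.17 in replicates 1 and 3, with no peak in replicate 2. In p27KO it was 4.55 and 5.39 at PRO, with no peak in replicate 1 and 3.98 in replicate 2 at DIFF. PRO lay above DIFF in both genotypes, with a change of −0.78 ± 0.25 in WT (limma, adjusted p = 0.0483) and −0.55 ± 0.30 in p27KO (adjusted p = 0.294). The call in WT stood close to the threshold and was lost without WT PRO replicate 1, 2 or 3, WT DIFF replicate 2 or 3 or p27KO DIFF replicate 1 or 2, with changes of −0.61 to −0.93 (limma, adjusted p of up to 0.170). It was also lost in 6 of 8 other settings (limma, adjusted p of up to 0.0850), namely ranking by p-value, the top 57000 peaks, regions in at least 2 libraries, only the groups compared and the replicate block as numbered (adjusted p = 0.0739) or crossed.

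The higher regions belonged to ventral windows. Nkx6-2 +51.8 kb, in an intron of the inositol phosphatase gene Inpp5a at 139530308 to 139531420, had a fold enrichment of 5.17, 2.99 and 4.30 in WT PRO and of 8.57, 5.86 and 10.3 in WT DIFF. It was 8.44 and 5.25 in p27KO PRO and 9.38 and 14.1 in p27KO DIFF. DIFF lay above PRO in both genotypes without overlap, while the p27KO PRO values overlapped those of WT DIFF. The change was 1.39 ± 0.27 in WT (limma, adjusted p = 0.00471), which passed without any 1 of the 10 libraries, and 1.00 ± 0.33 in p27KO (adjusted p = 0.0771).

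Gsx2 +7.1 kb, downstream of the gene at 75082502 to 75083320, had peaks in 6 libraries. There was a peak in 1 of 3 WT PRO libraries (3.42 in replicate 3), in 2 of 3 WT DIFF libraries (6.07 and 7.71 in replicates 1 and 3), in 1 of 2 p27KO PRO libraries (3.59 in replicate 1) and in 2 of 2 p27KO DIFF libraries (5.61 and 7.42). WT PRO and WT DIFF overlapped, since WT DIFF replicate 2, the shortest list, had no peak. The change was 1.31 ± 0.37 in WT and 1.60 ± 0.46 in p27KO (limma, adjusted p = 0.0306 and 0.0422). The call in WT was lost without WT PRO replicate 1 or 2 or WT DIFF replicate 1 or 3 (1.15 to 1.21, limma, adjusted p of up to 0.121), and that in p27KO without any 1 of the 3 WT PRO or of the 4 p27KO libraries (1.29 to 1.89, limma, adjusted p of up to 0.281). With regions in at least 2 libraries both calls were lost (1.04 and 1.34, limma, adjusted p = 0.0965 and 0.106), and with only the groups compared that in WT was lost (adjusted p = 0.0513).

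**Figure D4:**
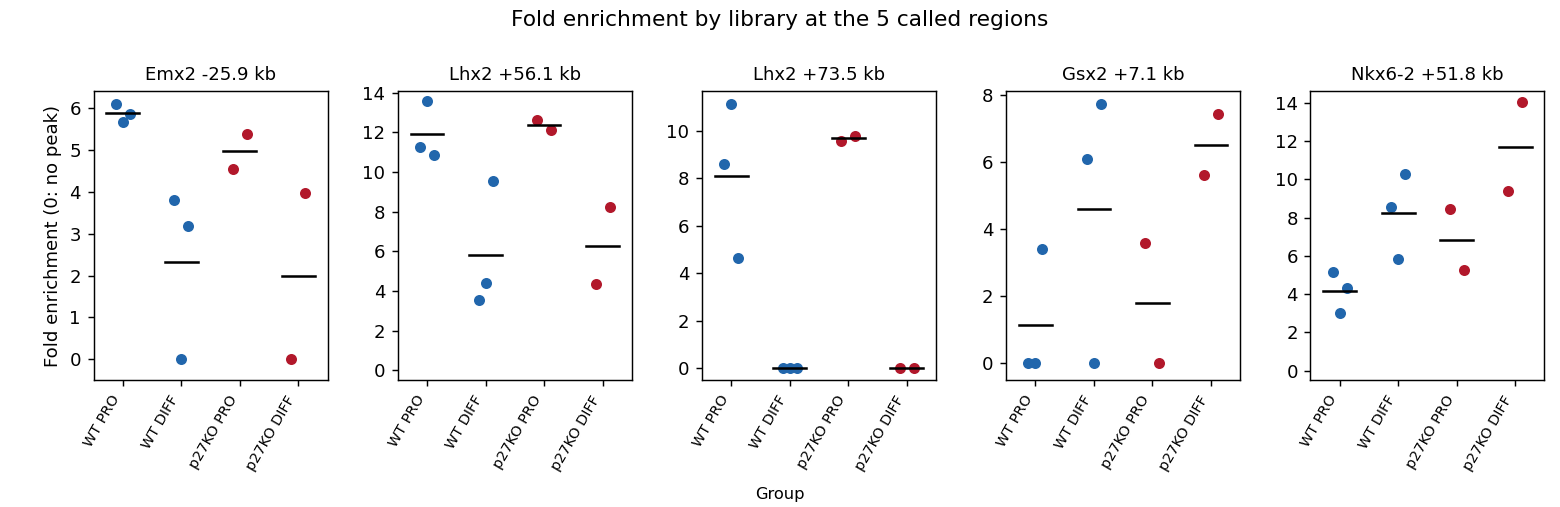
Fold enrichment (y axis, 0 where no peak was called) in each library of the 4 groups at the 5 regions that passed the test in WT or p27KO; points are libraries (blue WT, red p27KO) and bars are group means, without an error bar. The 3 regions of dorsal windows, on the left, are lower at DIFF and the 2 of ventral windows are higher. Of the dorsal ones, Lhx2 +73.5 kb entered the test only through its PRO libraries and so had to be lower.

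**Figure D5:**
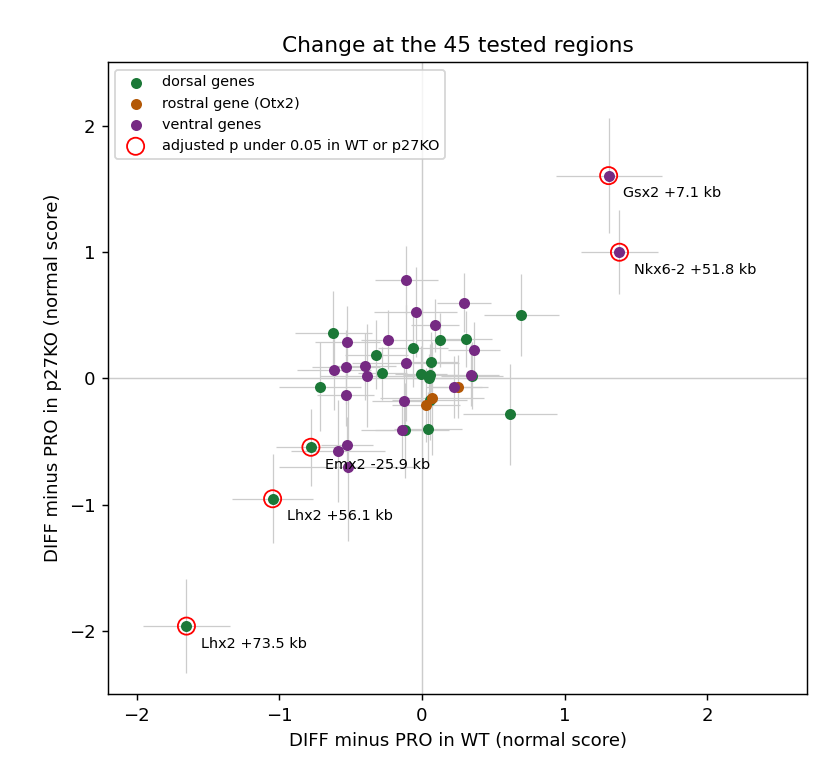
Change from PRO to DIFF in p27KO (y axis) against that in WT (x axis), both in normal scores with SE as bars, at the 45 tested member regions, coloured by kind, with the 5 called regions ringed. The called regions lie on the same side of 0 in both genotypes, from −1.65 and −1.96 at Lhx2 +73.5 kb to 1.31 and 1.60 at Gsx2 +7.1 kb, and most other regions lie closer to 0. Lhx2 +73.5 kb entered the test only through its PRO libraries and so had to be lower.

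Whether the change depended on p27 was tested by the interaction of genotype and condition. It was called at 0 of the 45 member regions by limma, as at 0 of all 70627 regions (0%), and 3 of the 45 had an unadjusted p under 0.05, against 2760 of the 70627. These 3 were Emx2 −40.1 kb (0.98 ± 0.43), Gsx2 −12.2 kb (0.81 ± 0.36) and Nkx2-1 +2.2 kb (0.89 ± 0.35), with an adjusted p of 0.9998 in limma. At the 5 called regions the interaction was 0.23 ± 0.39 for Emx2 −25.9 kb, 0.09 ± 0.45 for Lhx2 +56.1 kb, −0.31 ± 0.48 for Lhx2 +73.5 kb, 0.29 ± 0.59 for Gsx2 +7.1 kb and −0.39 ± 0.43 for Nkx6-2 +51.8 kb. These SE are of the order of the smaller changes themselves, so a difference between genotypes of that size was not detectable with these libraries.

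Between genotypes within a condition, 0 of the 45 member regions were called at PRO (0.034% over all regions) and 0 at DIFF (0.0156%), with 3 and 2 at an unadjusted p under 0.05 (against 3906 and 3466 of the 70627) and a lowest adjusted p of 0.744 and 0.892 (limma). At PRO these were Emx2 −40.1 kb (−0.83), Nkx2-1 +2.2 kb (−0.74) and Nkx6-2 +51.8 kb (0.75), as p27KO minus WT. At DIFF they were the Emx1 promoter (−0.72), which had no peak in p27KO DIFF replicate 1, and Gsx2 −4.9 kb (−0.72). The genotypes of these libraries also differed in Y-linked promoter peaks.

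Other regional genes of the same kinds were read in the same way. Of 9 further dorsal genes, 4 had a promoter peak in all 10 libraries (Dmrta2, Gli3, Lmx1a and Eomes), of 9 further ventral genes 5 (Dlx1, Dlx2, Lhx8, Isl1 and Meis2), and of 10 further genes of the rostrocaudal axis 7 (among them Six3, Otx1, En1, En2, Gbx2 and Irx3). The midbrain and hindbrain genes En1, En2 and Gbx2 were thus among those with a promoter peak throughout. Of the tested promoters of these lists, 6, 6 and 7, 0 were called by limma in WT or p27KO, where 4.72% and 2.17% of all promoters were, and 0 for the interaction or between genotypes. Over their windows, 3 of 65 dorsal, 5 of 48 ventral and 2 of 53 rostrocaudal regions were lower at DIFF in WT, and 5, 2 and 3 were higher. In p27KO 1, 2 and 1 were lower and 3, 2 and 1 higher. The shares called in either direction were 12.3, 14.6 and 9.43% in WT, against 19.2% of all tested regions. In p27KO they were 6.15, 8.33 and 3.77%, against 12.3%. By direction, the series had 10.1% lower and 9.15% higher in WT and 6.48% lower and 5.83% higher in p27KO. The direction of these counts was not tested. Of the 2 tested promoters of microglia markers, that of P2ry12 was lower at DIFF in both genotypes (−0.79 and −0.82, limma, adjusted p = 0.0106 and 0.0343). That of Aif1 was not called (0.14 in WT and −0.18 in p27KO, limma, adjusted p = 0.709 and 0.734). Of the 7 promoters of neural stem cell markers, only that of Gfap was called, higher in WT (0.62, limma, adjusted p = 0.0362). No promoter of the neuron, endothelium, ependyma or pericyte markers was called in WT or p27KO. The part of any change in cell composition in the changes of the member regions was not tested.

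Over the 10 libraries, the promoters most like those of the members by Pearson's r of the normal scores, among 14638 tested promoters, included Usp1 (0.9) for Pax6, S100b (0.940) and Cby3 (0.914) for Emx1, and Epc1 (0.981) and Samd13 (0.962) for Emx2. They were Scube1 (0.922) and Sgo2b (0.9) for Lhx2, Gsk3b (0.987) and Fgfrl1 (0.979) for Gsx1, and Arih2 (0.944) and A930009A15Rik (0.937) for Nkx6-2. With 10 libraries and so many promoters, values of this height are a description only, and no member was among the nearest of another.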

How the data were processed

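Peak lists of 10 ATAC-seq libraries were used. For these, the authors removed adapters (Cutadapt) and poor bases (Trimmomatic), aligned to GRCm38 with Bowtie2, handled duplicates with Picard and ran MACS2 on each library in narrow mode, with no shifting model and an FDR of 0.05; versions and read shifting are not given in the sources used here. The deposited lists give for each peak a fold enrichment (ratio of the summit to the local background), a −log10 p-value and a −log10 q-value.

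Peaks overlapping by at least 1 bp were merged. The regions to be tested were ranked by fold enrichment within each library and turned into normal scores, regions lacking a peak being tied lowest. A limma fit (version 3.58.1, R 4.3.3) over the 4 group means took the regions that had peaks in 5 or more libraries, with Benjamini-Hochberg adjustment over all 70627 at 0.05. The study's DiffBind test needs alignments, which were not used here. The fit was first run on simulated scores with normal noise. These held no ties for missing peaks and no differences in list length, so they say nothing about those effects. For each gene the promoter region, the region of the highest mean percentile and every called region were named; had regions of 1 library been allowed, another region would have been nearest to a start at Emx2 and Gsx2. Other regions named were chosen after their values were seen. The members and lists were chosen with earlier results of these data known. Sequences were read from GRCm38.p6. Some genes of the lists and of the likeness comparison, a marker of oligodendrocytes included, are not reported here.

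Alternatives were the rank by p-value, the top 57000 peaks of each list, a −log10 q-value of at least 2, 50 bp overlap, regions in at least 2 or in all 10 libraries, only the groups compared, a replicate block, windows of 20 and 100 kb and leaving out each library.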

Additional observations from a re-analysis of the deposited data

How the results depend on the processing

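The interaction and both genotype comparisons stayed at 0 called member regions under every alternative run. For DIFF against PRO, the counts called lower in WT (3), higher in WT (2), lower in p27KO (1) and higher in p27KO (1) became 0, 1, 0 and 1 in a window of 20 kb and 10, 4, 4 and 3 in one of 100 kb, which hold fewer and more regions. With regions in all 10 libraries they were 4, 1, 0 and 0, ranking by p-value gave 2 lower in p27KO, and fitting only the groups compared gave 2 lower and 1 higher in WT. The 4 lower in WT with all 10 libraries included the promoter of the ventral gene Nkx6-2 (limma, adjusted p = 0.0342). Lower calls were thus not confined to dorsal windows in that setting, in which Emx2 −25.9 kb and Lhx2 +73.5 kb were not tested. With regions in at least 2 libraries the counts stayed at 3, 2, 1 and 1. Emx2 −25.9 kb and Gsx2 +7.1 kb were then not called, so that other member regions took their place. In p27KO, Nkx6-2 +51.8 kb passed in 2 of 9 other settings and Lhx2 +56.1 kb in 1 of 9 (limma, lowest adjusted p = 0.0204 and 0.0440). Leaving out 1 library gave 0 to 3, 1 to 2, 0 to 1 and 0 to 1; Lhx2 +73.5 kb could not be fitted without a PRO library. Same-numbered WT libraries deviated together weakly (r = 0.057, 0.065 and 0.033), each best with its own number, while r was negative for all other WT pairs. Deviations from a group mean cancel, so a positive r for same numbers lowers r for the others. The negative signs are thus no separate sign of pairing. A pairing of WT libraries is possible, and the main fit left it out. With the replicate block the counts were 2, 2, 1 and 1. In p27KO r was −0.141 for same numbers, where groups of 2 libraries force the same size of r on every pair. A crossed block, added after seeing the data, gave 2, 2, 1 and 2.

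The change from PRO to DIFF in the share of regions with a peak, −10.8 points in WT and −12.3 in p27KO, ranged from −18.5 to −5.38 and from −21.5 to −3.08 over the libraries left out, and turned to 2.13 in p27KO with lists of equal length. That in the dorsal minus ventral percentile, 3.899 and 4.71, ranged from −0.175 to 6.58 and from 0.751 to 8.67, and was −0.938 in p27KO with 20 kb. The cause of these shifts was not tested.

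Signs turned at regions that were not called. Ranked by p-value, Pax6 +6.5 kb was −0.12 in WT and −0.073 in p27KO, Emx1 +0.3 kb −0.0098 in WT, Lhx2 +11.8 kb −0.27 and −0.11, and Nkx6-2 −33.3 kb −0.19 in WT; with regions in all 10 libraries, Pax6 +6.5 kb was −0.0076 in p27KO. Leaving out 1 library moved the change across 0, with ranges of −0.086 to 0.17 at Pax6 +6.5 kb in WT, −0.18 to 0.24 at Pax6 +6.5 kb in p27KO, −0.13 to 0.074 at Emx1 −49.7 kb in WT, −0.12 to 0.20 at Emx1 −49.7 kb in p27KO, −0.081 to 0.27 at Emx1 +0.3 kb in WT, −0.74 to 0.028 at Emx1 +0.3 kb in p27KO, −0.036 to 0.43 at Lhx2 +0.1 kb in p27KO, −0.058 to 0.22 at Lhx2 +11.8 kb in WT, −0.019 to 0.28 at Lhx2 +11.8 kb in p27KO, −0.29 to 0.072 at Nkx2-1 −4.4 kb in WT, −0.39 to 0.12 at Nkx6-2 0.0 kb in p27KO, −0.26 to 0.12 at Nkx6-2 −33.3 kb in p27KO and −0.22 to 0.087 at Otx2 −36.2 kb in p27KO.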
